A study of Homo sapiens with 36 samples.

Results

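Promoter sites of hypoxia-inducible factor (HIF) binding that lack the factor's own DNA motif were followed across Cut&Run libraries of 786-O cells. Overlapping peaks of the 15 anti-V5 lists of tagged lines were merged, regions with peaks from at least 2 lists were kept, and the median of the member summits was taken as the centre. Of 25350 such regions, 7283 had their centre within 1 kb of a transcription start site (TSS) of a protein-coding gene. In 2815 of these no hypoxia response element (HRE) core lay within 100 bp of the centre, and these are the sites described here. They made up 38.7% of the promoter sites and 11.1% of all regions. The other 4468 promoter sites, called HRE promoter sites below, served for comparison. The HRE core was searched on both strands as the letters ACGTG or GCGTG, and it had to lie wholly inside the window.

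786-O is a human clear cell renal carcinoma line without working VHL protein, the ubiquitin ligase subunit that marks HIF-α for destruction, and HIF-2α therefore accumulates in it without hypoxia. In Cut&Run, an antibody brings a nuclease to the protein of interest, and the DNA it releases from around the bound protein is sequenced. The series held 6 lines with 3 anti-V5 and 3 mouse IgG libraries each. WT cells had no tag. The HIF-2α KIN line was 1 homozygous clone in which the endogenous HIF-2α carried Halo and V5 tags. The 4 other lines were stable lines in which the L30 promoter drove a Halo- and V5-tagged HIF-2α, HIF-1α, HIF-2α/1α or HIF-1α/2α, and they still held the untagged HIF-2α of the parent cells. HIF-2α/1α and HIF-1α/2α are chimeras named for their DNA-binding and dimerization domains first (here DBD) and for their disordered C-terminal region second (IDR). Nothing in the sources used here says that the 3 replicates of a line were separate cultures, so p-values measure the spread between these libraries, which may be technical.

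HIF-1α and HIF-2α each pair with HIF-1β, and the pair reads the HRE through the basic helix-loop-helix domains of both partners. Promoters of many housekeeping genes are open chromatin rich in CpG, and they hold short motifs for factors such as SP1 (GC box), the ETS family, NFY (CCAAT box) and NRF1. Many transcription factors are recovered at such promoters without their own motif.

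As examples, the sequence around the centre is given for 5 of the strongest sites called in all 15 tagged lists and in no WT list. Their printed window lies outside UTRs and coding exons. Strength is that of the strongest peak in the whole region, and at VEGFA its summit lay a median of 3742 bp from the centre. An HRE lay within 100 bp of all 15 strongest summits at VEGFA. The same was true of 6 of 15 at SPAG4, 4 of 15 at VDAC1, 4 of 15 at TMCC1 and none at P4HA1. Letters are those of hg38, plus strand. Capitals mark any ETS core, GC box, CCAAT box, NRF1 core, CRE, AP-1, TATA box, BANP element, YY1 core or weak HRE-like core. The weak HRE-like core is TCGTG or CCGTG, which differs from the HRE only in its first base.
P4HA1, chr10:73097037-73097137: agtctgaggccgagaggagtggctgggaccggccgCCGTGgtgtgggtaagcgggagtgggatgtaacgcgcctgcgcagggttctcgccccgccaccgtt
SPAG4, chr20:35617670-35617770: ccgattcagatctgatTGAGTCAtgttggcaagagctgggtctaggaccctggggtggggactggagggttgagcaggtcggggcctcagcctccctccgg
VEGFA, chr6:43773516-43773616: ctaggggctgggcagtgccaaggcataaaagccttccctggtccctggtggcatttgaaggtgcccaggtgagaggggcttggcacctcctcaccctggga
VDAC1, chr5:134005085-134005185: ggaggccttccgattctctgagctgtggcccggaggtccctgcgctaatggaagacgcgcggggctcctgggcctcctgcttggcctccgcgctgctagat
TMCC1, chr3:129656914-129657014: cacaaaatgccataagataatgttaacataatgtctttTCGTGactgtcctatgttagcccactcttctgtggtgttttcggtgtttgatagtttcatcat

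The promoter of LDHA, the lactate dehydrogenase gene and a HIF target, is an HRE promoter site called in the same 15 lists, and its HRE cores are in capitals for contrast.
LDHA, chr11:18394418-18394518: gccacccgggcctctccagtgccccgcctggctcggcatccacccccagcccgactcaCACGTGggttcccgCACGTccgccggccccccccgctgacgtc

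None of the 5 sites had an HRE in the window, but each had one not far beyond it. The nearest core lay 137 bp from the centre at P4HA1, 153 bp at SPAG4, 148 bp at VEGFA, 103 bp at VDAC1 and 104 bp at TMCC1. The 41 bases around it follow, with the core in capitals, for the 3 genes where they lie outside exons.
VEGFA, chr6:43773398-43773438: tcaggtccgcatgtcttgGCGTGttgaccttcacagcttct
VDAC1, chr5:134005012-134005052: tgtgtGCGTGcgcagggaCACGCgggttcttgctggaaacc
TMCC1, chr3:129656840-129656880: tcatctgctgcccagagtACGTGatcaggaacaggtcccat

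The tagged lists held 3984 to 20808 peaks, and the WT lists held 392, 9508 and 743. The depth inferred from the lists lay between 0.241 and 0.625 fragments per base. HIF-2α replicate 2 stood apart from the other HIF-2α libraries, with 20651 peaks against 6590 and 5906, and WT replicate 2 stood apart from the other WT libraries. The deepest libraries, HIF-2α/1α replicate 2 (0.625) and HIF-2α replicate 2 (0.536), had the longest lists, with 20808 and 20651 peaks. The lengths did not follow this depth throughout, since HIF-2α KIN replicate 1 had 3984 peaks at 0.378 fragments per base and HIF-1α/2α replicate 2 had 18999 at 0.284. Absence of a call at a site does not show absence of the protein.

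The sites without an HRE were called in fewer lists than the HRE promoter sites. Their median was 5 of 15 tagged lists, against 7 for HRE promoter sites. All 15 lists held 115 of them (4.09%), against 355 HRE promoter sites (7.95%). Calls in only 2 lists were found at 596 of them (21.2%), against 562 HRE promoter sites (12.6%). Regions over 1 kb from a TSS had a median of 4 lists without an HRE and 6 with one. In all 15 lists were 4.02% and 11.3% of these regions, and in only 2 were 26.5% and 17.6%. Among the 3 libraries of a line, the percent of promoter sites without an HRE called was 8.99, 27.5 and 18.4 for HIF-2α KIN. It was 16.3, 59.4 and 14.2 for HIF-2α. It was 59.0, 69.9 and 40.5 for HIF-2α/1α, 55.6, 66.5 and 56.0 for HIF-1α, and 43.0, 51.9 and 37.3 for HIF-1α/2α. The KIN libraries and HIF-2α replicates 1 and 3 were the low ones, and the range of HIF-2α overlapped that of every other tagged line. In every tagged library the percent was lower than among the HRE promoter sites, with differences from -12.4 to -5.74 percentage points. The WT libraries called 0.0710%, 9.98% and 1.39% of the sites, and there the difference from HRE promoter sites ran the other way, by 0.00390, 1.86 and 0.356 points. The same libraries called 0.177%, 13.7% and 2.80% of the regions over 1 kb from a TSS. Calls in tagged lists are what chose the sites, so the tagged and WT percentages are a description.

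**Figure D1:**
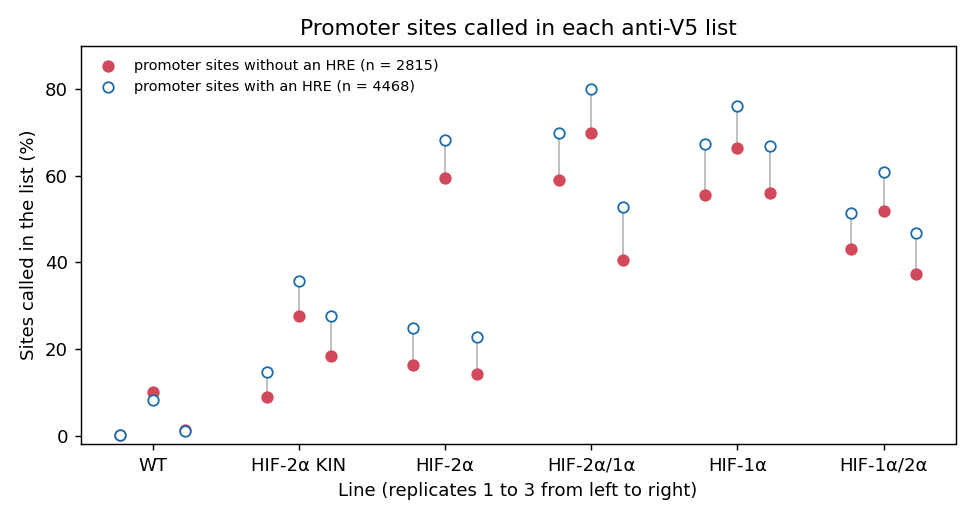
Percent of promoter sites called in each anti-V5 list, by line, with 1 pair of points per library: filled for the 2815 sites without an HRE and open for the 4468 HRE promoter sites. In all 15 tagged libraries the filled point is the lower one, and in WT replicate 2 it is the higher one (9.98% against 8.12%).

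By domain, the percent of sites called was 37.0 ± 18.5 (SD) over the 6 exogenous libraries with the HIF-2α IDR and 57.9 ± 10.3 over the 6 with the HIF-1α IDR. The difference was -20.9 points, and it was -27.6, -12.5 and -22.5 points within replicates 1, 2 and 3. Replicate 2 had the highest percent in every line, WT and KIN included. Leaving out HIF-2α replicate 2 gave -29.2 points, and cutting all lists to the same length gave -11.7 points. By DBD, HIF-2α minus HIF-1α, the difference was -8.50 points. The gap to the HRE promoter sites of the same list was -8.85 ± 0.395 points with the HIF-2α IDR and -11.0 ± 1.02 points with the HIF-1α IDR. It differed by 2.13 points between the IDRs, by 0.793 points among regions with peaks from at least 3 lists, and by up to 5.30 points under the alternatives run. Between the DBDs it differed by -0.0248 points. Because a site could enter through the lists of 1 domain alone and was then counted as called there, these values describe the sites and carry no test.

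The share of peaks without an HRE was next taken from each list's own summits, which does not depend on the merged regions. In tagged libraries 29.8% to 38.0% of promoter peaks had no HRE within 100 bp of the summit, with a mean of 35.5% ± 2.84 (SD, n = 15). In WT libraries the share was 55.3% of 914 promoter peaks (95% exact binomial interval 52.0 to 58.5, counting error only), 55.7% of 97 (45.2 to 65.8) and 70.0% of 10 (34.8 to 93.3). The groups did not overlap, and the difference of -24.9 points passed (two-sided exact permutation test of 15 against 3 libraries, p = 0.00123, the smallest it can give, adjusted p = 0.0049). It was -13.5 points at a −log10 q of at least 5 and -36.3 points without the regions called in at least 2 WT libraries. For comparison, 56.5% of windows of the same length around 19630 protein-coding TSS held no HRE. By line, the mean was 32.9% ± 3.73 for HIF-2α KIN and 33.5% ± 3.72 for HIF-2α (SD, n = 3 each). It was 36.1% ± 0.904 for HIF-2α/1α, 37.4% ± 0.0522 for HIF-1α and 37.2% ± 1.12 for HIF-1α/2α (SD, n = 3 each). In the 12 exogenous libraries, with labels exchanged only within the other domain, neither the IDR (HIF-2α minus HIF-1α -1.39 points, exact permutation p = 0.295) nor the DBD (-2.50 points, exact permutation p = 0.055, adjusted p = 0.11) passed. When HIF-2α replicate 2 was left out, the DBD gave -3.56 points (exact permutation p = 0.005), and with lists of equal length it gave -1.02 points (exact permutation p = 0.2). Within replicates 1, 2 and 3 the DBD difference was -3.10, -0.631 and -3.78 points, and the interaction of IDR and DBD was -2.43 points (exact permutation p = 0.34).

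Peaks without an HRE were the weaker ones. Promoter peaks of each list were ranked by fold enrichment and divided into 5 equal classes, and in all 15 tagged libraries the weakest class had a higher share without an HRE than the strongest. The mean share fell from 45.2% ± 3.37 in the weakest class through 40.5%, 35.6% and 31.1% to 24.8% ± 1.64 in the strongest (SD, n = 15). The difference was 15.9, 21.6 and 20.4 points in the KIN libraries, 18.9, 24.2 and 16.0 for HIF-2α, and 25.8, 24.1 and 21.0 for HIF-2α/1α. It was 17.9, 19.7 and 19.1 points in HIF-1α and 22.5, 21.5 and 16.9 for HIF-1α/2α. Its mean of 20.4 ± 3.01 points passed (two-sided exact sign-flip permutation test over 15 libraries, p = 6.1e-05, the smallest it can give, adjusted p = 0.000366). With lists of equal length it was 8.72 points. WT replicate 2, the only WT list with more than 100 promoter peaks, had 50.8% in the weakest and 50.5% in the strongest class. In WT replicate 3, with 97 promoter peaks, the difference was 27.4 points, and in WT replicate 1, with 10, it was 50.0 points, both above all tagged libraries.

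**Figure D2:**
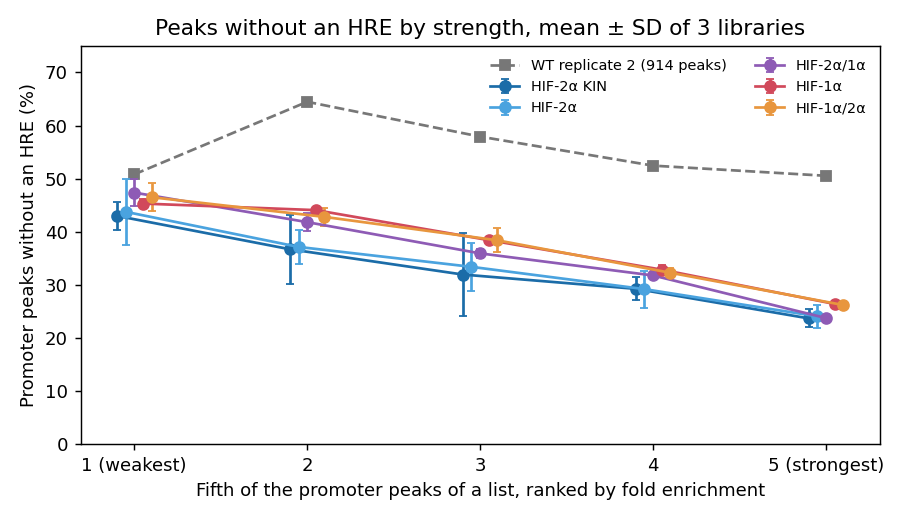
Percent of promoter peaks without an HRE within 100 bp of the summit (y axis) in 5 equal classes of each list's promoter peaks ranked by fold (x axis). Lines join the means of 3 libraries with SD bars, and the dashed line is WT replicate 2. All 5 tagged lines fall from 43.0% to 47.4% in the weakest class to 23.7% to 26.4% in the strongest, while WT replicate 2 has 50.8% and 50.5%. WT replicates 1 and 3, with 10 and 97 promoter peaks, are not drawn and had differences of 50.0 and 27.4 points.

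The same held for the merged regions. The median log2 fold of the sites called in a library was lower than that of the HRE promoter sites in all 15 tagged libraries, with differences from -0.39 for HIF-2α/1α replicate 2 to -0.03 for HIF-2α KIN replicate 1. The mean difference of -0.20 ± 0.08 (SD, n = 15) passed (exact sign-flip permutation p = 6.1e-05, adjusted p = 0.000366), and it was -0.07 with lists of equal length. The difference was 0.03 in WT replicate 2, with 281 of the sites, -0.12 in WT replicate 3, with 39, and -0.33 in WT replicate 1, with 2. A median site was supported by 13 to 46 fragments at its summit, depending on the library, against 15 to 57 for an HRE promoter site. The HRE promoter sites had a higher GC content, and averaged over 3 classes of GC content the difference was also -0.20.

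Most of these sites had an HRE not far away. The median distance from the centre to the nearest core was 174 bp, and 1128 of 2815 sites (40.1%) had a core within 150 bp. Among 11095 protein-coding TSS without an HRE within 100 bp, measured the same way, the median was 260 bp and 22.1% had a core within 150 bp. Between 100 and 150 bp from the centre the density was 5.38 cores per kb, close to the 5.47 around HRE promoter sites and against 2.69 around those TSS. It declined to 4.31 between 150 and 200 bp, 3.34 between 200 and 250 bp and 2.84 between 250 and 300 bp. The 265 sites with the nearest core up to 10 bp beyond the window limit were called in a median of 7 lists, and the 294 HRE promoter sites with it up to 10 bp inside in a median of 6.

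**Figure D3:**
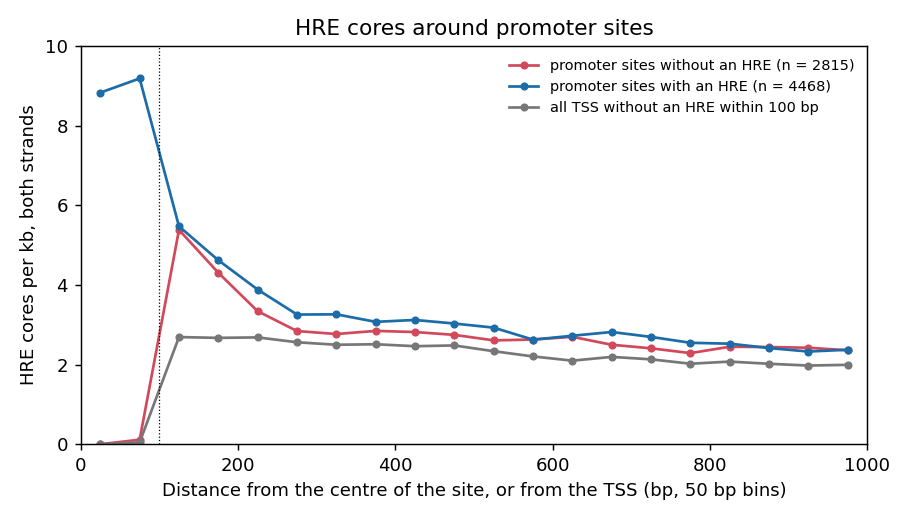
Density of HRE cores on both strands (y axis, per kb) in bins of 50 bp by distance from the centre of the site or from the TSS (x axis); the dotted line marks the 100 bp limit. Just outside the limit the sites without an HRE have 5.38 cores per kb, as the HRE promoter sites do (5.47), and TSS without an HRE have 2.69.

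The nearby HRE was more frequent at sites called in more lists. A core within 150 bp was present at 33.4% of the 1239 sites called in 2 to 4 lists, 39.6% of the 935 called in 5 to 9, 50.4% of the 526 called in 10 to 14 and 68.7% of the 115 called in all 15. Single summits bore on this too. The strongest peak of a list at a site had its summit within 100 bp of the centre in 83.5% of 17578 cases, and 19.4% of these strongest summits had an HRE within 100 bp of their own position. At 1452 sites no summit of any list had an HRE within 100 bp, and 643 sites (22.8%) had none in the whole merged region. Restricting the sites to these 1452 or 643, with all 4468 HRE promoter sites kept, gave a log2 fold difference of -0.29 or -0.38. The restriction also favoured sites called in few lists. No summit had an HRE at 66.3% of the sites called in 2 to 4 lists and at 20.9% of those called in all 15. Whether the larger differences come from the number of lists was not tested. At 210 sites (7.46%) some list had more than 1 peak in the region, and at 273 most of the strongest summits lay over 100 bp from the centre, so that the centre does not mark the strongest binding there.

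The sites lay close to the TSS. The median distance was 129 bp, against 116 bp for HRE promoter sites, and 1732 (61.5%) lay upstream of the nearest TSS. The centre fell in a UTR at 747 sites (26.5%), in a coding exon at 150 (5.33%), in an intron at 1038 (36.9%) and outside protein-coding genes at 880 (31.3%). At 308 sites (10.9%) protein-coding TSS lay within 1 kb on both strands, against 12.6% of HRE promoter sites. The 2815 sites had 2634 distinct nearest genes, and 352 of these genes (13.4%) also had an HRE promoter site, which is 8.25% of the 4267 genes of those sites. Near the 1 kb limit, the 33 sites up to 50 bp inside it were called in a median of 5 lists, and the 33 regions without an HRE up to 50 bp beyond it in a median of 3.

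In base composition the sites were like other promoters without an HRE. The median GC content of the 100 bp to each side was 63.7% and the median CpG count 15, against 64.2% and 15 for TSS windows without an HRE, 67.2% and 19 for HRE promoter sites and 47.8% and 2 for regions over 1 kb from a TSS without an HRE. A GC box (GGGCGG) was present at 52.7% of the sites, an ETS core (CCGGAA) at 16.6%, a CCAAT box (CCAAT) at 27.6% and an NRF1 core (GCATGCGC) at 2.81%, all read on both strands. TSS windows without an HRE held them at 49.0%, 15.8%, 26.1% and 2.20%, and HRE promoter sites at 57.3%, 18.1%, 24.1% and 3.76%. The AP-1 motif (TGACTCA or TGAGTCA) was present at 6.22%, against 2.42% of TSS windows without an HRE, 3.65% of HRE promoter sites and 24.8% of regions over 1 kb from a TSS without an HRE. The weak HRE-like core (TCGTG or CCGTG) was present at 45.2%, against 34.4% of TSS windows without an HRE and 46.0% of HRE promoter sites. A TATA box (TATAAA) was present at 2.70%, against 2.35% of HRE promoter sites and 8.43% of those TSS windows. The TSS windows are centred on the TSS, while 42.4% of the sites had their centre within 100 bp of one. The CRE (TGACGTCA), the BANP element (CTCGCGAG) and the YY1 core (AAGATGGCG) were each present at under 2% of the sites (1.07%, 0.888% and 1.31%). With the weak HRE-like core left out of the count, 701 sites (24.9%) held none of these motifs, against 24.5% of TSS windows without an HRE. Motifs may overlap each other, and the presence of letters does not show that a factor was bound.

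Of the 115 sites called in all 15 tagged lists, 85 were in no WT list. Of the 10 of these with the highest mean percentile of fold, 9 are described, with P4HA1, SPAG4, VEGFA, PGAM1, TPI1, VDAC1, TMCC1, GBE1 and CAV1 as nearest genes, in order. The regions are given with hg38 positions.

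The P4HA1 site (chr10:73095041-73098185, centre 113 bp upstream of the TSS) was the strongest. P4HA1 encodes a subunit of collagen prolyl 4-hydroxylase. Its fold was 66.1, 84.4 and 47.7 for HIF-2α KIN, 47.4, 142 and 64.4 for HIF-2α, 58.2, 64.0 and 34.4 for HIF-2α/1α, 38.2, 40.8 and 36.8 for HIF-1α, and 61.8, 97.3 and 70.1 for HIF-1α/2α. The values of the lines overlapped, apart from those of HIF-1α, which lay below all of HIF-2α KIN, HIF-2α and HIF-1α/2α. All 15 strongest summits lay within 100 bp of the centre and none had an HRE within 100 bp.

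PGAM1 encodes phosphoglycerate mutase, a glycolytic enzyme, and its site (chr10:97425126-97426740, centre 10 bp upstream of the TSS, shared with RRP12) had the same form. Its fold was 39.9, 49.9 and 49.0 for HIF-2α KIN, 47.5, 53.1 and 11.6 for HIF-2α, 88.6, 25.8 and 28.9 for HIF-2α/1α, 53.9, 42.0 and 50.1 for HIF-1α, and 55.7, 71.1 and 40.4 for HIF-1α/2α. No line stood apart. All 15 strongest summits lay within 100 bp of the centre and none had an HRE there, with the nearest core 158 bp away.

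At TPI1, the gene of triosephosphate isomerase, the fold ranged from 14.1 to 84.8 with a median of 43.5, and 6 of the 15 strongest summits had an HRE within 100 bp. At SPAG4, which encodes a nuclear envelope protein, the fold ranged from 26.1 to 129 (median 58.5) and again 6 of 15 summits had one. VDAC1, the channel of the outer mitochondrial membrane, had a fold of 13.1 to 61.3 (median 36.9), with an HRE at 4 of 15 summits, as had TMCC1, a protein of the endoplasmic reticulum, with a fold of 8.13 to 81.3 (median 36.9). At GBE1, the glycogen branching enzyme, the fold ranged from 13.2 to 150.1 (median 29.3), with an HRE at 2 of 15 summits.

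VEGFA and CAV1 were chosen by the rule but were sites of another kind. The VEGFA region (chr6:43768635-43777156) held 47 peaks, and its strongest summits lay a median of 3742 bp from the centre, with an HRE within 100 bp of all 15. VEGFA encodes the main angiogenic growth factor downstream of HIF. At CAV1, which encodes caveolin 1, the strongest summits lay a median of 1956 bp from the centre and 7 of 15 had an HRE. For these regions the fold describes a peak outside the promoter window.

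**Figure D4:**
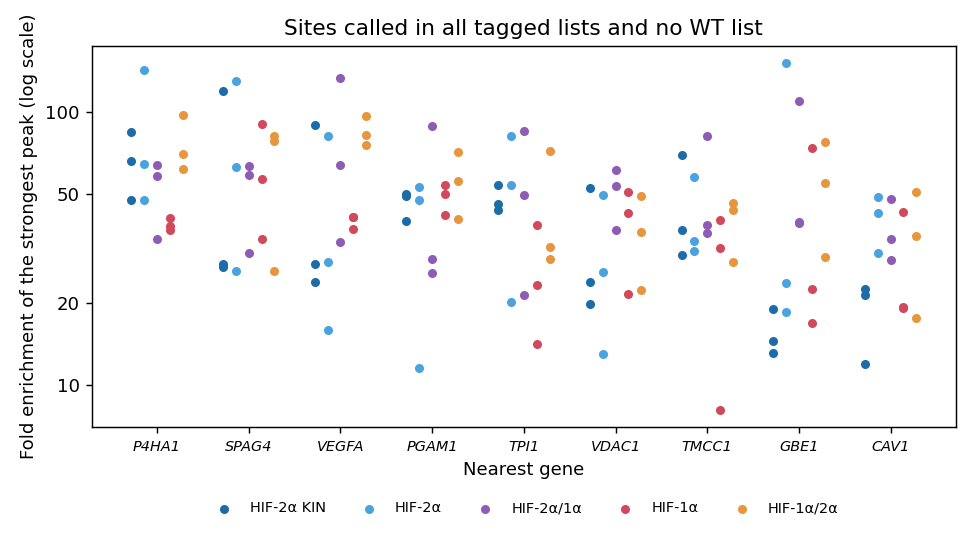
Fold enrichment of the strongest peak in the region (log axis) in each of the 15 tagged libraries for 9 of the 10 strongest sites called in all tagged lists and no WT list, coloured by line. The P4HA1 values span 34.4 to 142. At VEGFA and CAV1 the strongest peak lies outside the promoter window.

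HIF target genes had both kinds of promoter site. Of 75 genes known as HIF targets, 28 (37.3%) were the nearest gene of a site without an HRE and 42 (56.0%) of an HRE promoter site, with 7 in both and 12 in neither. Of all 20033 protein-coding genes these shares were 13.1% and 21.3%. The 33 sites at HIF targets were called in a median of 13 lists, against 5 for all 2815 sites, and 21 of the 33 were called in at least 2 KIN libraries, against 400 of all 2815 (14.2%). A WT library called 7 of the 33, against 295 of all 2815 (10.5%). The 44 HRE promoter sites of the same genes were called in a median of 15 lists, 36 of them in at least 2 KIN libraries. The list was drawn up with earlier results of these data known, and the counts are a description.

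Beside P4HA1, PGAM1, TPI1, VEGFA and GBE1, the sites of HIF targets called in all 15 lists included those of CITED2, MXI1, PFKP, PKM and TFRC. TFRC encodes the transferrin receptor, and its fold was 12.2, 33.4 and 24.5 for HIF-2α KIN, 14.8, 51.5 and 22.2 for HIF-2α, 20.3, 23.5 and 17.1 for HIF-2α/1α, 14.1, 29.1 and 20.0 for HIF-1α, and 27.9, 25.3 and 30.4 for HIF-1α/2α. No line stood apart at TFRC, and none of its strongest summits had an HRE within 100 bp. CITED2, a competitor of HIF for its coactivators, had a fold of 12.5 to 54.9 (median 20.2), and this site was also called in 1 WT list. At MXI1, a MYC antagonist, 9 of 15 strongest summits had an HRE within 100 bp. At PFKP and PKM, which encode glycolytic kinases, the strongest summits lay a median of 1448 and 1767 bp from the centre, and the PKM site was also called in 1 WT list.

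Of the other gene groups, immediate early genes, which answer growth signals within minutes, had such a site at 10 of 24 genes (41.7%), led by JUN, called in 15 lists with a fold of 5.77 to 22.3, and IER2, called in 13. Cytosolic ribosomal protein genes had one at 21 of 87 (24.1%), and the median of these sites was 4 lists. RPL10 was called in 14 lists with a median fold of 7.40 and RPL36 in 9. Proteasome subunits had one at 12 of 39 (30.8%), led by PSMD12 and PSMA6, called in 11 and 10 lists, and heat shock proteins and chaperonins at 17 of 74 (23.0%), led by DNAJB2 and HSPA2, called in 14 and 13. Aminoacyl tRNA synthetases had one at 8 of 35 (22.9%), led by TARS1 and HARS1, called in 11 and 10 lists. HRE promoter sites were found at 58.3%, 27.6%, 23.1%, 29.7% and 42.9% of the genes of these groups, in that order. Of all protein-coding genes 21.3% had one. Sites without an HRE made up 40.7%, 46.7%, 54.5%, 42.5% and 34.8% of the promoter sites of these groups, against 38.7% of all promoter sites. An HRE lay within 100 bp of 7 of 15 strongest summits at JUN, 6 of 13 at IER2 and 4 of 11 at PSMD12. It did so at 2 of 14 for RPL10, 1 of 9 for RPL36 and 1 of 13 for HSPA2. The count was 2 of 11 for TARS1, 2 of 10 for HARS1 and none for PSMA6 and DNAJB2.

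Several groups were near or below the 13.1% of all protein-coding genes. Mitochondrial ribosomal proteins had such a site at 9 of 77 genes (11.7%), led by MRPL12 and MRPL17. Subunits of the respiratory chain and ATP synthase had one at 5 of 41 (12.2%), led by NDUFA6 and NDUFV3. ZNF-named zinc finger genes had one at 74 of 476 (15.5%), led by ZNF141 and ZNF8, both called in 14 lists, and RNA polymerase subunits at 5 of 30 (16.7%), led by POLR2A and POLR2D. Splicing factors and hnRNPs had one at 3 of 21 (14.3%), with SF3A3 in 5 lists and SF3B4 in 3. Replication-dependent histones had one at 5 of 69 (7.25%), with H2BC15 in 4 lists and H3C6 in 3, and of 3 translation initiation factors matched by name EIF5 had one, in 2 lists. HRE promoter sites were found at 32.5% of the mitochondrial ribosomal protein genes and 26.8% of the respiratory chain genes. The shares were 25.0% for zinc finger, 26.7% for RNA polymerase, 47.6% for splicing and 11.6% for histone genes, against 21.3% of all protein-coding genes. An HRE lay within 100 bp of 5 of 11 strongest summits at MRPL12, 5 of 14 at ZNF141 and 2 of 8 at MRPL17. The count was 1 of 13 for NDUFA6, 1 of 5 for POLR2D and 1 of 5 for SF3A3. No strongest summit had one at NDUFV3, ZNF8, POLR2A, SF3B4, H2BC15, H3C6 or EIF5.

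Endogenous HIF-2α, read in the KIN line, was called in at least 2 of 3 libraries at 400 of the sites (14.2%). HRE promoter sites had such calls at 1026 (23.0%). Regions over 1 kb from a TSS had them at 15.5% without an HRE and 26.9% with one. No KIN list held 1834 of the sites (65.2%), against 55.6% of HRE promoter sites. For regions over 1 kb from a TSS it was 61.1% without an HRE and 53.1% with one. Of the 400, 311 were in no WT list, as were 847 of the 1026 HRE promoter sites. The KIN lists held 3984, 13193 and 7311 peaks, and the longest tagged list 20808.

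At least 1 WT library called 295 of the sites (10.5%), against 8.46% of HRE promoter sites. Among regions over 1 kb from a TSS the share was 14.6% without an HRE and 13.8% with one. At least 2 WT libraries called 26 of the sites (0.924%), against 0.694% of HRE promoter sites. For the regions over 1 kb from a TSS it was 2.42% without an HRE and 2.16% with one. The single site called in all 3 WT libraries was near CARD10, a scaffold protein of NF-κB signalling. Its fold was 9.89, 41.5 and 17.4 in WT and 4.75 to 34.9 in the tagged lines, so that WT and tagged libraries overlapped.

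To see whether single sites differed in strength between the domains, log2 folds were fitted with limma in the 2720 regions called in all 12 exogenous libraries, which held 193 of the sites (6.86% of them). Higher fold with the HIF-1α DBD passed at 9 of the 193, against a background of 2.1% of all regions tested, and higher fold with the HIF-2α DBD at 2 (background 0.956%). Higher fold with the HIF-1α IDR passed at 3 (background 0.551%) and with the HIF-2α IDR at 1 (background 1.73%). With summit fragments per depth in place of the fold, 78 of the 193 (40.4%) passed for the IDR, against 42.0% of all regions tested. Of these 78, 61 had the higher value with the HIF-1α IDR and 17 with the HIF-2α IDR. Of all 2720 regions, 495 and 648 did, in that order. For the DBD 60 sites (31.1%) passed, against 29.1% of all regions tested. Of these 60, 34 had the higher value with the HIF-1α DBD and 26 with the HIF-2α DBD. Of all 2720 regions, 355 and 436 did, in that order. The median DBD difference was 0.01 over the 193 and 0.01 over all regions tested, and the median IDR difference was -0.06 and 0.06.

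PIGT, which encodes a subunit of the GPI transamidase, had the largest DBD difference among the sites. Its fold was 5.91, 4.17 and 5.46 for HIF-2α, 5.50, 5.47 and 4.11 for HIF-2α/1α, 30.8, 15.1 and 18.7 for HIF-1α, and 13.3, 26.1 and 12.7 for HIF-1α/2α. Every library with the HIF-1α DBD was above every library with the HIF-2α DBD (log2 difference -1.88 ± 0.347 SE, limma adjusted p = 0.000116), and no KIN or WT library called the site. It lay 849 bp upstream of the nearest TSS, inside an intron, and its nearest HRE was 390 bp from the centre. WNT2B, a WNT ligand, showed the same order, with 4.75 to 7.18 in the 6 libraries with the HIF-2α DBD and 11.2 to 36.3 in the other 6 (log2 difference -1.51 ± 0.351 SE, limma adjusted p = 0.0043). An HRE lay within 100 bp of 6 of the 12 strongest summits at WNT2B and of none of the 12 at PIGT.

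LNPK, a protein of endoplasmic reticulum junctions, had -1.57 ± 0.338 SE (limma adjusted p = 0.00136), and NARF had -1.40 ± 0.347 SE (limma adjusted p = 0.00785). ANGPTL4, which encodes a lipase inhibitor and is a HIF target, had 8.75, 17.4 and 6.77 for HIF-2α, 7.42, 14.6 and 8.17 for HIF-2α/1α, 13.9, 27.4 and 17.0 for HIF-1α, and 59.3, 61.2 and 18.6 for HIF-1α/2α. Its DBD difference was -1.50 ± 0.339 SE (limma adjusted p = 0.00289), the groups overlapped at replicate 2 of HIF-2α and of HIF-2α/1α, and 3 of its 14 strongest summits had an HRE. In the other direction MXD4, a MYC antagonist, had 1.44 ± 0.350 SE (limma adjusted p = 0.00661) and SLC26A1, an anion exchanger, 1.27 ± 0.344 SE (limma adjusted p = 0.0194). The libraries of the DBDs also overlapped at LNPK, NARF, MXD4 and SLC26A1. An HRE lay within 100 bp of 7 of 15 strongest summits at LNPK, 3 of 14 at NARF, 6 of 14 at MXD4 and 1 of 15 at SLC26A1.

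For the IDR, CMPK1, a nucleotide kinase, had a fold of 16.4, 13.8 and 10.5 for HIF-2α, 51.6, 55.4 and 43.5 for HIF-2α/1α, 26.5, 56.5 and 39.4 for HIF-1α, and 19.1, 20.4 and 15.2 for HIF-1α/2α. All 6 libraries with the HIF-1α IDR were above the other 6 (log2 difference -1.21 ± 0.337 SE, limma adjusted p = 0.0325). This site was also called in 1 WT library. DHRS3, a retinal reductase, had -1.24 ± 0.347 SE (limma adjusted p = 0.0325), but its strongest summits lay a median of 758 bp from the centre, and EEF1D, a translation elongation factor subunit, passed for both domains (IDR -1.21 ± 0.344 SE, limma adjusted p = 0.035; DBD -1.19 ± 0.344 SE, limma adjusted p = 0.033). The EEF1D site was also called in 1 WT library. The libraries of the IDRs overlapped at DHRS3 and EEF1D, and at EEF1D those of the DBDs did too. An HRE lay within 100 bp of 2 of 15 strongest summits at CMPK1, 10 of 15 at DHRS3 and 6 of 14 at EEF1D. BCL6, a transcriptional repressor, was the site with higher fold with the HIF-2α IDR, at 13.8, 24.7 and 20.3 for HIF-2α and 22.3, 18.2 and 9.17 for HIF-1α/2α against 5.75, 12.2 and 5.38 for HIF-2α/1α, with 5.55, 15.0 and 6.63 for HIF-1α (log2 difference 1.45 ± 0.343 SE, limma adjusted p = 0.00962). At BCL6 the groups overlapped at replicate 2 of HIF-1α and HIF-2α/1α, replicate 1 of HIF-2α and replicate 3 of HIF-1α/2α. None of the 13 strongest summits at BCL6 had an HRE within 100 bp.

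**Figure D5:**
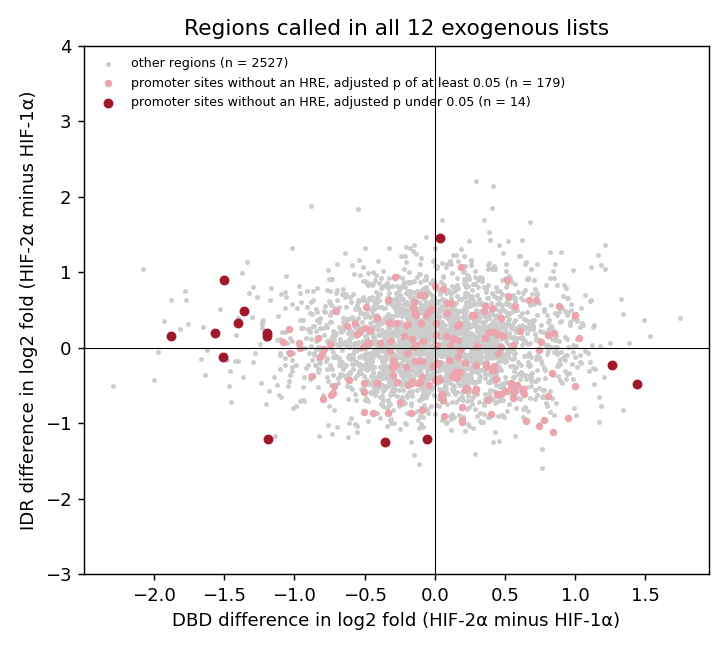
DBD difference (x axis) against IDR difference (y axis) in median-centred log2 fold, HIF-2α minus HIF-1α, for the 2720 regions called in all 12 exogenous libraries. Dark points are the 14 sites without an HRE with a limma adjusted p under 0.05 for either domain, pale points are the other 179 sites, and grey points are the 2527 other regions; the dark points lie mostly to the left, where fold was higher with the HIF-1α DBD.

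Calls were counted in the same way, 6 libraries against 6. These calls also chose the sites, so the counts are a description. At an unadjusted p of Fisher's exact test under 0.05, calls were more frequent with the HIF-1α IDR at 42 of the 2815 sites (1.49%), against 1.32% of all 25350 regions and 1.90% of HRE promoter sites. They were more frequent with the HIF-1α DBD at 19 sites (0.675%, background 0.489%), with the HIF-2α IDR at 1 (background 0.0947%) and with the HIF-2α DBD at 1 (background 0.075%). No region passed after Benjamini-Hochberg adjustment. Full separation, 6 of 6 against 0 of 6, was found at 6 sites for the HIF-1α IDR (0.213%), against 44 of all regions (0.174%). The 5 strongest of these were near LTBP4, FKBP8, DDX60L, SIGLECL1 and MYCL, and the fold at LTBP4 was 10.3, 23.1 and 9.23 for HIF-2α/1α, with 15.6, 21.0 and 9.96 for HIF-1α. The HIF-1α DBD gave 2 such sites (0.0710%, against 17 of all regions or 0.0671%), near CBX5, which encodes a heterochromatin protein, and near MTERF4. No site was called in all 6 libraries of the HIF-2α IDR or DBD and in none of the other 6, as 4 of all regions were for either domain.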

How the data were processed

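Cut&Run was run with anti-V5 antibody and with mouse IgG, the control, in 6 lines of 786-O cells with 3 replicates each. The authors aligned reads to hg38 with bowtie2 version 2.3.4.1, called peaks with MACS2 in each anti-V5 library against the IgG library of its line and replicate, keeping duplicate reads and pooling nothing, and removed blacklisted regions. The deposited lists give for each peak the fold enrichment, a ratio of pileup to local background, and the −log10 of p and q at the summit. The authors' lists give no counts. The depth and the fragments at each summit were recovered from the deposited fold and −log10 p together, and in 17 libraries whole fragments matched every peak used within 0.001. Keeping duplicates can raise the fold of low-complexity libraries.

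Regions, windows and classes were made as the opening of the report states, with TSS of GENCODE release 44 and sequence of the same build. The value of a region in a library is that of its peak with the highest −log10 p. Tests were two-sided exact permutation tests over libraries, with Benjamini-Hochberg adjustment over 12 tests (those of calls at the sites are not reported, since calls chose the sites), limma 3.58.1 on median-centred log2 fold, and Fisher's exact test. The permutation tests, the limma fit and the recovery of depth were tested on simulated data. Python 3.11.15, NumPy 2.4.6, SciPy 1.17.1, pandas 2.3.3, matplotlib 3.10.9 and R 4.3.3 were used. Named sites are the 10 strongest in all tagged and no WT lists, those of HIF targets in most lists (at most 12), those past limma (at most 5 a direction), those fully separated between domains, 2 per other gene list, and those in 3 WT lists. The sites, gene lists and tests were chosen with earlier results of these data known. IgG libraries enter only through the calls. Sites at 2 of the genes so named are not reported here.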

Additional observations from a re-analysis of the deposited data

How the results depend on the processing

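The lower fold of sites without an HRE, the higher share of HRE-free peaks among weak peaks and the lower share in tagged than in WT libraries kept their direction and passed under all alternatives run. With lists of equal length, the first 2 were -0.07 on the log2 scale and 8.72 points. The domain comparisons were less stable, and the causes were not tested.

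For the percent of sites called, which is given without a test, the IDR difference was also computed with lists of equal length (-11.7 points), an HRE window of 50 bp (-21.7), a promoter limit of 500 bp (-21.5), TSS at gene 5′ ends (-22.0) and peaks from at least 3 lists (-23.7), and ranged from -29.2 to -16.9 when 1 library was left out. The gap to HRE promoter sites differed by IDR by 1.87 points at a −log10 q of at least 5. The difference was 0.793 points with at least 3 lists, 3.29 with an HRE window of 200 bp and 3.20 with any base before CGTG. It was 2.49 points with lists of equal length. Over all alternatives it ranged from 0.793 to 5.30 points, and from 1.58 to 2.38 when 1 library was left out. The DBD difference in that gap was near 0 and turned positive with an HRE window of 50 bp (0.249), an overlap of 50 bp (0.0775), no HRE near any summit (0.517), no HRE in the region (1.08) and at most 1 peak per list (0.335), and ranged from -0.312 to 0.553 when 1 library was left out. For the share of promoter peaks without an HRE, the IDR difference turned positive with lists of equal length (0.936) and any base before CGTG (0.237). The DBD difference there passed with any base before CGTG (-1.97), a promoter limit of 500 bp (-2.72), gene 5′ ends (-2.86) and within classes of GC content (-2.68), and ranged from -3.56 to -1.79 when 1 library was left out. It did not pass and was smaller with lists of equal length (-1.02, exact permutation p = 0.2) and an HRE window of 50 bp (-0.683, exact permutation p = 0.485). The alternatives by GC content, by HRE near other summits or in the region and by peaks per list were chosen after seeing the data.

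The limma calls among the sites were 4 for IDR and 11 for DBD. They were 78 (40.4%) and 60 (31.1%) with summit fragments per depth, against 42.0% and 29.1% of all regions tested. Of the 78, 61 were higher with the HIF-1α IDR and 17 with the HIF-2α IDR, against 495 and 648 of all 2720 regions. The DBD count was 21 among sites called in at least 10 of 12 libraries (3.93%, against 2.72% of all regions). Leaving out 1 library gave 1 to 4 for IDR and 6 to 18 for DBD. The IDR count was 1 without HIF-1α/2α replicate 2, HIF-2α replicate 3 or HIF-2α/1α replicate 1. It was 2 after removal of HIF-2α replicate 2 or HIF-1α/2α replicate 3. The DBD count was 18 without HIF-2α replicate 3, 7 without HIF-1α replicate 3 or HIF-2α replicate 2, and 6 without HIF-1α/2α replicate 3.

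Replicate numbers were shared by the lines, and no label says that they mark a common batch. All 12 libraries correlated best with their own number, with a median of 0.0750 against -0.0544 for other numbers, and the library numbers in the deposited names run together by replicate, which are hints of a shared batch. Single pairs correlated at 0.0292 to 0.201. Since not every pair exceeded 0.1, the numbers were not used as pairs. With the replicate block the DBD difference in the share of peaks (-2.50 points) passed, with an exact permutation p of 0.0312, the smallest it allows. The IDR difference in sites called was -20.9 points with that block too. Under that block limma called 6 sites for IDR and 15 for DBD.

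A median site rested on 13 to 46 fragments, which limits the precision of its fold.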
